A study of Mus musculus with 54 samples.

Results

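The 34 genes described here are interferon response genes, selected by symbol from a list and followed through every table of a mouse study of branched-chain amino acids (BCAAs: leucine, isoleucine and valine) in lung fibrosis. They were 34 of the 43615 gene symbols that appear in any of its 4 expression tables, and each of the 34 was listed in all 4. By role they comprised 5 regulators (Stat2, Irf1, Irf7, Irf9, Usp18), 2 nucleic acid sensors (Ifih1, Zbp1), 15 antiviral effectors (Ifit1, Ifit2, Ifit3, Isg15, Rsad2, Oasl2, Oas1a, Oas2, Mx1, Mx2, Bst2, Ifi27l2a, Ifi35, Ifi44, Xaf1), 8 GTPases (Igtp, Irgm1, Irgm2, Iigp1, Ifi47, Gbp2, Gbp3, Gbp7) and 4 genes of class I antigen presentation (Psmb8, Psmb9, Tap1, B2m). Values are TPM (transcript abundance scaled to 1 library total), a unit already divided by transcript length, so that levels may be compared between genes, while the read depth of a library is unknown from it.

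RNA-seq covered 24 libraries of cultured fibroblasts and 30 of whole lung. The fibroblasts were primary cells from the lungs of 6- to 8-week-old mice. They were held for 24 h in complete medium, in BCAA-free medium, or in BCAA-free medium to which BCAAs or branched-chain keto acids (BCKAs) had been added back, and then for 48 h with PBS or with TGF-β1 at 20 ng/mL. This gave 8 groups of 3 libraries. The concentrations of the returned BCAAs and BCKAs, and whether replicates came from separate isolations, are not stated, so a p-value measures only the spread between these samples.

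The lungs came from male C57BL/6 mice of 10 to 12 weeks in 3 separate experiments, each with a PBS group, an intratracheal bleomycin group (BLM, a drug that injures the lung and leads to fibrosis) and a group with bleomycin plus an intervention. In the drinking-water experiment (3 mice a group) bleomycin was given at 1.25 mg/kg, the third group drank 3 mM BCAA for 7 days beforehand, and lungs were taken on day 14. In the diet experiment (4 mice a group) the dose was 1.25 mg/kg, the third group ate a BCAA-free diet for 14 days starting on day 7, and lungs were taken on day 21. In the BT2 experiment (3 mice a group) the dose was 3.5 mg/kg, and from day 3 bleomycin mice received daily intraperitoneal 10% DMSO or BT2 (20 mg/kg) for 11 days until day 14. BT2 inhibits BCKDK, a kinase that restrains the breakdown of BCKAs. The titles of its PBS group carry DMSO while its treatment label says PBS only, so whether those mice were injected is not known. Dose, day or both, and the table, differ between each pair of the 3 experiments, and their values are set side by side without a test.

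Cell type markers fitted the labels. In the cultures the 8 fibroblast markers summed to between 10831 and 56424 TPM, and the 12 macrophage markers to between 0.79 and 11.1 TPM, with C1qa and Tyrobp at 0 in every library and Ptprc in all but 2. In the lungs macrophage, endothelial and alveolar markers were all detected. In whole lung, fewer cells of a type and less RNA per cell cannot be told apart. Some libraries stood apart. BCAA-free TGF-β1 replicate 1 had 15.2 TPM of the ribosomal gene Rpl31 against 573 and 352 in replicates 2 and 3, and bleomycin with BCAA-free diet replicate 3 listed 17554 genes above 0, the fewest of its table, with 16.5% mitochondrial transcripts. The PBS lungs of the diet experiment had 12.2% to 17.3% mitochondrial transcripts against 4.41% to 5.29% in the bleomycin lungs on normal diet. The secretory airway gene Scgb1a1 took 10.8% to 27.3% of TPM in the former and 2.40% to 2.83% in the latter. In the water experiment it took 13.5% to 24.4% with PBS and 4.89% to 10.9% with bleomycin alone. In the BT2 experiment it took 10.3% to 14.6% with PBS, 1.12% to 2.16% with bleomycin and DMSO, and 4.85% to 10.4% with BT2. A larger share for 1 gene lowers the TPM of the others, and its part in the results was not tested. Where leaving out one of the 2 single libraries ended a call or moved a named value among the 34 genes by over 1.5 times, the value without it is given as well. The PBS lungs of the diet experiment are a whole group and cannot be left out.

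Interferons are secreted proteins that warn neighbouring cells of infection. Type I interferons act through a receptor and JAK kinases to form a complex, ISGF3, that contains STAT2 and IRF9 and binds a DNA element called the ISRE, while interferon gamma signals through a second element, the GAS, and leads to IRF1, itself a transcription factor. The genes switched on include sensors of foreign nucleic acid, effectors that block viral entry and translation, GTPases that attack the vacuoles of intracellular parasites (the IRG and GBP families), and the proteasome subunits, peptide transporter and light chain needed for MHC class I display. Fibroblasts and lung epithelium carry interferon receptors, and many of these genes are transcribed at a low level without infection.

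The promoters of these genes are the regulatory sequences on which the elements above lie, and a few are printed to show them. RefSeq held a promoter, 250 bases before to 50 after the start on build GRCm38.p6, for 27 of the 34 genes; Usp18, Zbp1, Oas2, Mx1, Mx2, Ifi27l2a and Iigp1 had none in the table. The core of the ISRE, read as GAAA, any 2 bases and GAAA, was searched on both strands (TTTC, any 2 bases and TTTC on the other strand) and its letters occurred in the 250 bases before the start of 14 of the 27 (51.9%), against 936 of 27025 genes of the table (3.46%). Among the GTPases 6 of 7 held it, and among the antiviral effectors 6 of 11. The letters TTCNNNGAA of the GAS occurred in 8 of the 27 (29.6%) against 2197 genes of the table (8.13%), and 5 of the 27 held both. A match describes letters and does not show that a factor binds there. Shown 5′ to 3′ along the gene's own strand with matched letters in capitals, overlapping matches joined, are 4 GTPases, 2 antiviral effectors with several matches, B2m and Irf1. The capitals mark both motifs wherever they fall in a printed stretch: in Igtp and Irgm2 the first run is a GAS match and the second an ISRE match, in Irf1 the run is a GAS match, and in the other 5 all runs are ISRE matches.
Igtp: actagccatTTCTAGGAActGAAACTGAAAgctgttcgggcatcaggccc
Irgm2: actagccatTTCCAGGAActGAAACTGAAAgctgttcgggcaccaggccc
Irgm1: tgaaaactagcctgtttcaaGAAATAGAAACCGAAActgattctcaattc
Gbp3: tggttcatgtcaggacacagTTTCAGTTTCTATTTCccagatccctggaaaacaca
Ifit1: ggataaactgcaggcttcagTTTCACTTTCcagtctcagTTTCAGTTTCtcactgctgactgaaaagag
Isg15: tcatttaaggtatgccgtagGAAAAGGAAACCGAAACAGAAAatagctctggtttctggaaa
B2m: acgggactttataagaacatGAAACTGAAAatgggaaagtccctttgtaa
Irf1: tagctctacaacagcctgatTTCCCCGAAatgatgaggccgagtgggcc
They lie at chr11:58199502-58199551, plus strand (Igtp), chr11:58214893-58214942, plus strand (Irgm2), chr11:48871421-48871470, minus strand (Irgm1), chr3:142559979-142560034, plus strand (Gbp3), chr19:34640765-34640833, plus strand (Ifit1), chr4:156200855-156200916, minus strand (Isg15), chr2:122147528-122147577, plus strand (B2m) and chr11:53769904-53769952, plus strand (Irf1). The Igtp and Irgm2 stretches share 48 of 50 bases, and the annotation holds an Irgm2 transcript that begins at the Igtp locus, so reads could be split between them. Psmb9 and Tap1 are divergent neighbours whose starts lie 226 bases apart, and their windows share 275 of 300 bases. Ifit3, Ifit1, Oas1a, Gbp2, Mx1 and Mx2 also have close copies in the genome, which makes their counts uncertain, and whether counting used strand is unknown.

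In resting fibroblasts in complete medium these genes were detected without any added interferon. Their summed level was 1767 to 2163 TPM in the 3 libraries, of which B2m, the light chain of MHC class I, made up 25.5 to 26.3%. Bst2 (tetherin, which holds budding virions at the membrane) followed at 195, 159.7 and 201 TPM, Stat2 at 134, 105 and 122 TPM and Irgm2 at 109.6, 98.2 and 91.4 TPM. At the low end, Mx1 stayed under 1 TPM in all 24 libraries (highest 0.769) and was the only member not tested in fibroblasts. By group mean, 27 of the 34 genes were highest in resting cells in complete medium, and 24 of the 34 were lowest in BCAA-free medium with TGF-β1; these counts are a description without a test. The genes of the interferons themselves were scarcely transcribed: of 21 listed, 16 were at 0 in all 24 libraries, Ifnb1 and Ifng among them, and none exceeded 0.445 TPM.

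**Figure D1:**
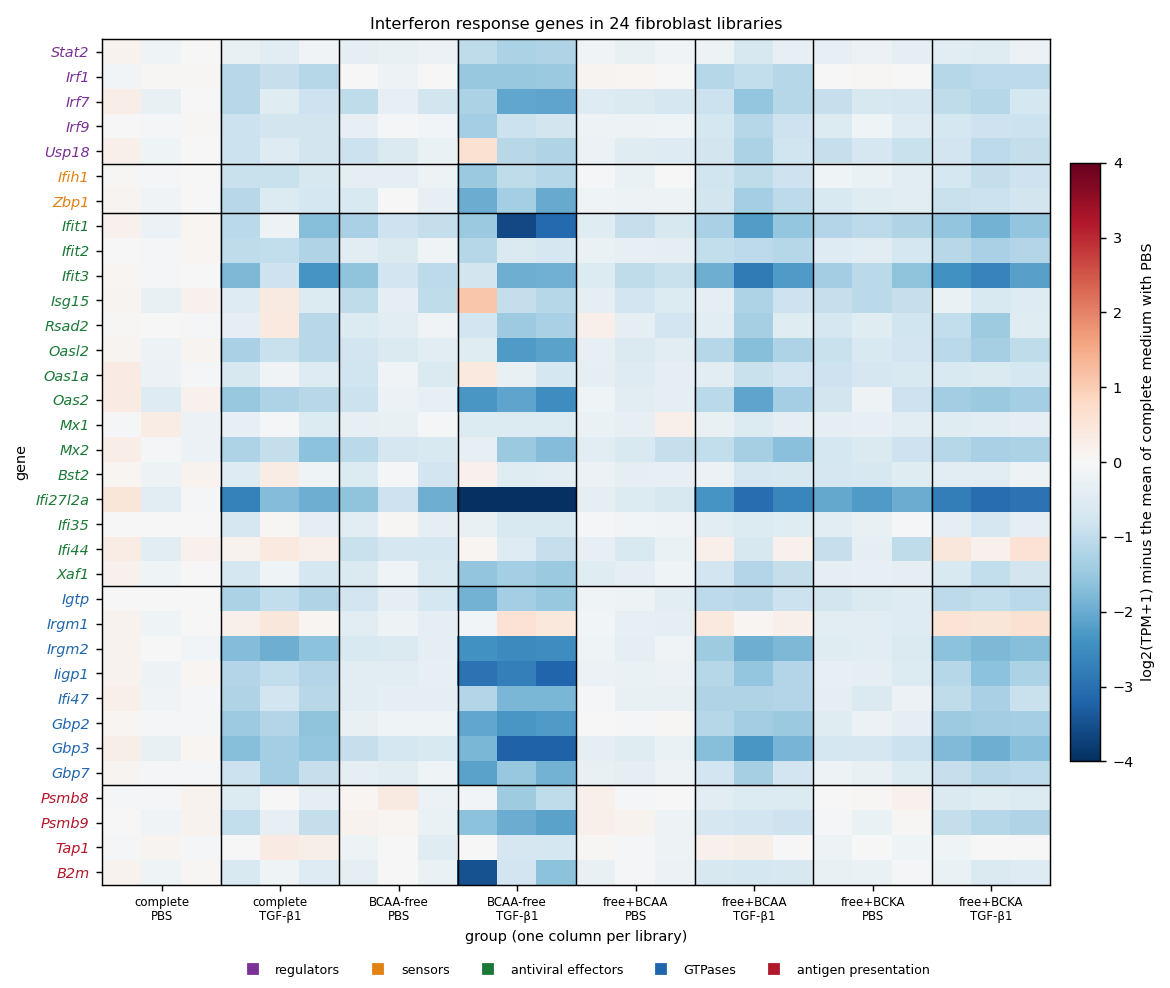
Level of each of the 34 genes in the 24 fibroblast libraries, as log2(TPM + 1) minus the mean of the 3 libraries in complete medium with PBS. Rows are genes with labels coloured by role, columns are libraries by group, and colours stop at 4 log2 units either way. The columns of BCAA-free medium with TGF-β1 hold the lowest value of most rows, and the Irgm1 row shows no fall with TGF-β1.

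TGF-β1, the growth factor that turns fibroblasts into contractile, collagen-making cells, was compared with PBS in complete medium. Of the 33 genes tested 22 were lower with TGF-β1 and 0 were higher, against a background of 36.4% of all 13084 genes tested called lower and 12.2% higher. The median difference of the 33 was -0.81 log2, and of all genes -0.20. By role 7 of 8 GTPases were lower, 4 of 5 regulators, both sensors, 8 of 14 effectors and 1 of 4 antigen presentation genes. Throughout, differences are log2(TPM + 1) with their standard error, from limma with Benjamini-Hochberg adjustment over all genes tested, called at 0.05.

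Among the regulators, Irf1 stood at 39.8, 43.9 and 44.6 TPM with PBS and 19.2, 22.2 and 19.0 TPM with TGF-β1. Every treated library was below every control, a difference of -1.05 ± 0.09 log2, adjusted p = 1.72e-09. Irf7, which amplifies type I interferon production, fell from 63.1, 42.1 and 52.9 to 23.5, 36.8 and 28.7 TPM (-0.81 ± 0.23 log2, adjusted p = 0.00504). The groups did not overlap for Irf7, nor for Irf9, the DNA-binding subunit of ISGF3 (34.4 against 59.7 TPM by group mean, -0.78 ± 0.14 log2, adjusted p = 8.86e-05). Of the sensors, Ifih1, which detects long double-stranded RNA, was -0.81 ± 0.12 log2, adjusted p = 7.37e-06, and Zbp1, which detects Z-form nucleic acid, -0.79 ± 0.18 log2, adjusted p = 0.00106.

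Ifi27l2a, a small interferon-induced membrane protein, showed the largest difference of the 33. It stood at 58.5, 30.6 and 39.0 TPM with PBS and 5.46, 11.6 and 9.79 TPM with TGF-β1. No treated library reached the lowest control, and the difference was -2.14 ± 0.26 log2, adjusted p = 6.56e-07. Ifit3, of the family that binds viral RNA, went from 55.1, 49.7 and 52.4 to 14.4, 28.9 and 9.32 TPM (-1.67 ± 0.33 log2, adjusted p = 0.000246). The treated libraries were uneven, replicate 2 being the highest, yet all lay under the controls. Oas2, which makes the 2-5A messenger that activates RNase L, was 5.41 against 15.0 TPM (-1.28 ± 0.24 log2, adjusted p = 0.000134). Isg15, a ubiquitin-like modifier, did not pass, at 30.6, 22.96 and 32.0 TPM with PBS and 19.2, 36.9 and 19.0 TPM with TGF-β1, overlapping groups with -0.24 ± 0.38 log2, adjusted p = 0.636.

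Irgm2, a regulator of the other IRG proteins at membranes, stood at 109.6, 98.2 and 91.4 TPM with PBS and 29.2, 24.9 and 31.2 TPM with TGF-β1. The groups were far apart, at -1.78 ± 0.12 log2, adjusted p = 6.70e-11. The guanylate-binding proteins Gbp3 (-1.53 ± 0.25 log2, adjusted p = 2.89e-05) and Gbp2 (-1.40 ± 0.11 log2, adjusted p = 7.32e-10) fell too. Irgm1, of the same family as Irgm2, was 57.0, 45.8 and 52.1 TPM with PBS and 59.2, 70.4 and 54.0 TPM with TGF-β1. Its groups overlapped, with the higher mean under TGF-β1, and it did not pass the test (0.24 ± 0.14 log2, adjusted p = 0.171). In antigen presentation only Psmb9, an interferon-inducible proteasome subunit, fell (5.09 against 9.10 TPM, -0.76 ± 0.17 log2, adjusted p = 0.000998). B2m was 569, 449.7 and 525 TPM with PBS and 333, 452 and 356 TPM with TGF-β1, -0.44 ± 0.37 log2, adjusted p = 0.338. With only the compared groups fitted in limma, B2m passed as lower (adjusted p = 0.023).

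The other genes that fell were Mx2, Igtp, Iigp1, Oasl2, Ifit2, Gbp7, Ifi47, Ifit1, Xaf1 and Stat2, with differences between -1.27 and -0.30 log2. Among these Mx2 is a dynamin-like antiviral GTPase, Oasl2 a relative of the 2-5A synthetases and Xaf1 a promoter of cell death. Those that did not pass were Usp18, B2m, Oas1a, Rsad2, Ifi35, Psmb8, Irgm1, Isg15, Ifi44, Tap1 and Bst2, with differences between -0.70 and 0.24 log2. They include Bst2, at 195, 159.7 and 201 TPM with PBS and 129.7, 226 and 164 TPM with TGF-β1, groups that overlapped and whose difference (-0.13 log2) changed sign with centring (0.0642). Leaving out PBS replicate 1 or 3 or TGF-β1 replicate 1 ended the calls of Ifit1 and Stat2, TGF-β1 replicate 2 that of Stat2 and replicate 3 that of Ifit1, and centring those of Ifit1, Stat2 and Xaf1. Fitting only the compared groups added calls of B2m, as given above, and of Usp18 as lower (-0.70 log2, adjusted p = 0.00241).

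Genes beyond the 34 in the same pathway were read from lists chosen with earlier results known. Of 10 receptor and JAK-STAT genes 5 were lower. Of 39 further antiviral effectors 27 were lower and 1 higher, and of 8 further GTPases 7 were lower. Of 16 class I genes 8 were lower and 1 higher, whereas all 3 class II genes tested were higher, H2-Ab1 by 1.02 log2. The macrophage marker sum was 2.28 to 3.56 TPM with PBS and 9.31 to 11.1 TPM with TGF-β1, carried by Csf1r and Cd68, and its part in these results was not tested. Centring every library on its median turned the background to 23% lower and 21.3% higher and left 19 of the 33 lower and 1 higher, Irgm1.

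Removing BCAAs from resting fibroblasts gave few calls. With PBS, BCAA-free against complete medium, 3 of the 33 were lower and 0 higher, against a background of 0.336% lower and 0.573% higher. The difference was negative for 32 of the 33, with a median of -0.41 log2 against -0.03 for all genes, and 20 had an unadjusted p under 0.05. Counts by sign or at an unadjusted p, here and below, have no matching share of all genes beside them. The same holds for counts with a library left out. The genes were measured in the same libraries, so these counts are a description only. Ifi27l2a stood at 12.9, 22.6 and 9.81 TPM without BCAAs, all under the complete-medium values given above (-1.47 ± 0.26 log2, adjusted p = 0.00542). Igtp, an IRG GTPase, was 22.8, 23.2 and 23.7 TPM with BCAAs and 13.1, 17.7 and 14.0 TPM without (-0.61 ± 0.13 log2, adjusted p = 0.0246), and Irgm2 69.5 against 99.7 TPM (-0.52 ± 0.12 log2, adjusted p = 0.0424). Neither overlapped, but leaving out complete-medium PBS replicate 1 or a pseudocount of 0.1 ended all 3 calls, and leaving out replicate 2 or 3 of that group, or BCAA-free PBS replicate 1, ended those of Igtp and Irgm2. Leaving out BCAA-free PBS replicate 2 ended the call of Irgm2, and replicate 3 that of Igtp. Ifit3, at 24.0 against 52.4 TPM, did not pass (-1.13 ± 0.33 log2, adjusted p = 0.137). With only the compared groups fitted in limma, Ifit3 passed (adjusted p = 0.0109), as did Ifit1, Oasl2 and Gbp3.

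Under TGF-β1 the same removal lowered more of the genes, though the counts were not tested against each other. Of the 33, 22 were lower in BCAA-free than in complete medium and 0 higher, where 24.8% of all genes were lower and 35.5% higher. The median of the 33 was -0.65 log2, and of all genes 0.10. All 4 antigen presentation genes, 7 of 8 GTPases, both sensors, 3 of 5 regulators and 6 of 14 effectors were lower. Without BCAA-free replicate 1, the library noted above, 25 were lower and 2 higher, counts without the matching share of all genes.

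Ifi27l2a was near 0, at 0.0878, 0.377 and 0.297 TPM. The highest of these libraries was far below the lowest in complete medium with TGF-β1 (5.46 TPM), a difference of -2.94 ± 0.26 log2, adjusted p = 2.99e-09. Ifit1, an RNA-cap binding effector, stood at 22.8, 42.0 and 14.4 TPM with BCAAs and 16.7, 3.11 and 4.83 TPM without. Replicate 1 without BCAAs lay inside the range of the control group, and the difference was -1.74 ± 0.37 log2, adjusted p = 0.000411. Oas2 was 4.47, 5.52 and 6.24 TPM with and 2.06, 2.61 and 1.74 TPM without BCAAs, apart in every library (-1.03 ± 0.24 log2, adjusted p = 0.000824).

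Iigp1, an IRG GTPase that disrupts parasite vacuoles, stood at 39.9, 45.4 and 39.7 TPM with BCAAs and 10.9, 12.98 and 9.31 TPM without. The 3 libraries without BCAAs were tight and well below the others (-1.83 ± 0.13 log2, adjusted p = 1.40e-10). Gbp3 (6.35 against 14.5 TPM, -1.23 ± 0.25 log2, adjusted p = 0.000225) and Gbp2 (11.1 against 20.4 TPM, -0.82 ± 0.11 log2, adjusted p = 1.66e-06) followed. Irgm1 stood at 47.3, 77.2 and 69.4 TPM without BCAAs, overlapping complete medium (0.06 ± 0.14 log2, adjusted p = 0.748).

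B2m stood at 333, 452 and 356 TPM with BCAAs and 44.4, 304 and 163 TPM without. The lowest value by far was replicate 1; the difference was -1.52 ± 0.37 log2, adjusted p = 0.00121, and without that replicate -0.76 log2, adjusted p = 0.000611. Psmb9 fell from 4.11, 7.02 and 4.15 to 2.22, 1.53 and 1.27 TPM (-1.17 ± 0.17 log2, adjusted p = 5.02e-06), and Tap1, the peptide transporter, was 33.1 against 51.4 TPM (-0.65 ± 0.15 log2, adjusted p = 0.000623). Among regulators and sensors, Irf7 (-1.01 ± 0.23 log2, adjusted p = 0.000603), Stat2 (-0.88 ± 0.11 log2, adjusted p = 9.63e-07), Irf1 (-0.46 ± 0.09 log2, adjusted p = 0.000128) and Zbp1 (-0.99 ± 0.18 log2, adjusted p = 6.33e-05) and Ifih1 (-0.40 ± 0.12 log2, adjusted p = 0.00613) fell. Stat2 was 98.3, 87.2 and 108 TPM with BCAAs and 58.4, 49.0 and 51.0 TPM without, with no overlap. The other genes that fell were Xaf1, Gbp7, Rsad2, Irgm2, Ifi44, Ifi47, Psmb8 and Igtp, with differences between -0.95 and -0.44 log2. Fitting only the compared groups ended the calls of B2m, Tap1, Irf1, Ifih1, Ifi44, Ifi47, Igtp, Psmb8 and Rsad2. The calls of Rsad2, Psmb8 and Ifi44 were also lost by leaving out single libraries: all 3 without complete-medium replicate 2 or BCAA-free replicate 3, Psmb8 and Rsad2 without BCAA-free replicate 2, and Rsad2 without complete-medium replicate 1.

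Replicate 1 of BCAA-free TGF-β1 was high where its partners were low for some effectors. Isg15 was 61.4, 14.0 and 12.2 TPM, and Usp18, which removes Isg15 from its targets and restrains the receptor, 40.0, 11.4 and 10.6 TPM, in replicates 1, 2 and 3. Neither gene passed the test in this comparison (-0.10 ± 0.38 log2, adjusted p = 0.837 and 0.14 ± 0.30 log2, adjusted p = 0.704). Without that library both passed as lower, Isg15 at -0.82 log2, adjusted p = 0.00552 and Usp18 at -0.45 log2, adjusted p = 0.0231, so the values with it rest on replicate 1. Irgm1 (0.26 log2, adjusted p = 0.0484) and Ifit2 (0.44 log2, adjusted p = 0.00176) then passed as higher. Psmb8 went to -0.93 log2 and Igtp to -0.29 log2 (-0.56 and -0.44 with that library).

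Along the pathway, 6 of 10 receptor and JAK-STAT genes were lower without BCAAs under TGF-β1 and 1 higher. The receptor chains Ifngr1 (27.6 against 61.9 TPM, -1.21 log2, adjusted p = 1.13e-06) and Ifnar2 (73.6 against 142 TPM, -0.98 log2, adjusted p = 7.19e-06) were among the lower. Of 39 further effectors 22 were lower and 2 higher. The lower included the membrane-fusion blockers Ifitm2 (96.3 against 459 TPM, -2.82 ± 0.47 log2, adjusted p = 2.43e-05) and Ifitm3 (185 against 667 TPM, -1.89 ± 0.17 log2, adjusted p = 5.13e-09). For these blockers and the receptor chains, values without BCAA-free replicate 1 are not given here. Of 8 further GTPases 4 were lower, of 16 class I genes 8 were lower and 3 higher, and all 3 class II genes were lower. The fibroblast marker sum ranged from 11498 to 56424 TPM in these 3 libraries against 38193 to 42803 TPM in complete medium, and its part was not tested.

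**Figure D2:**
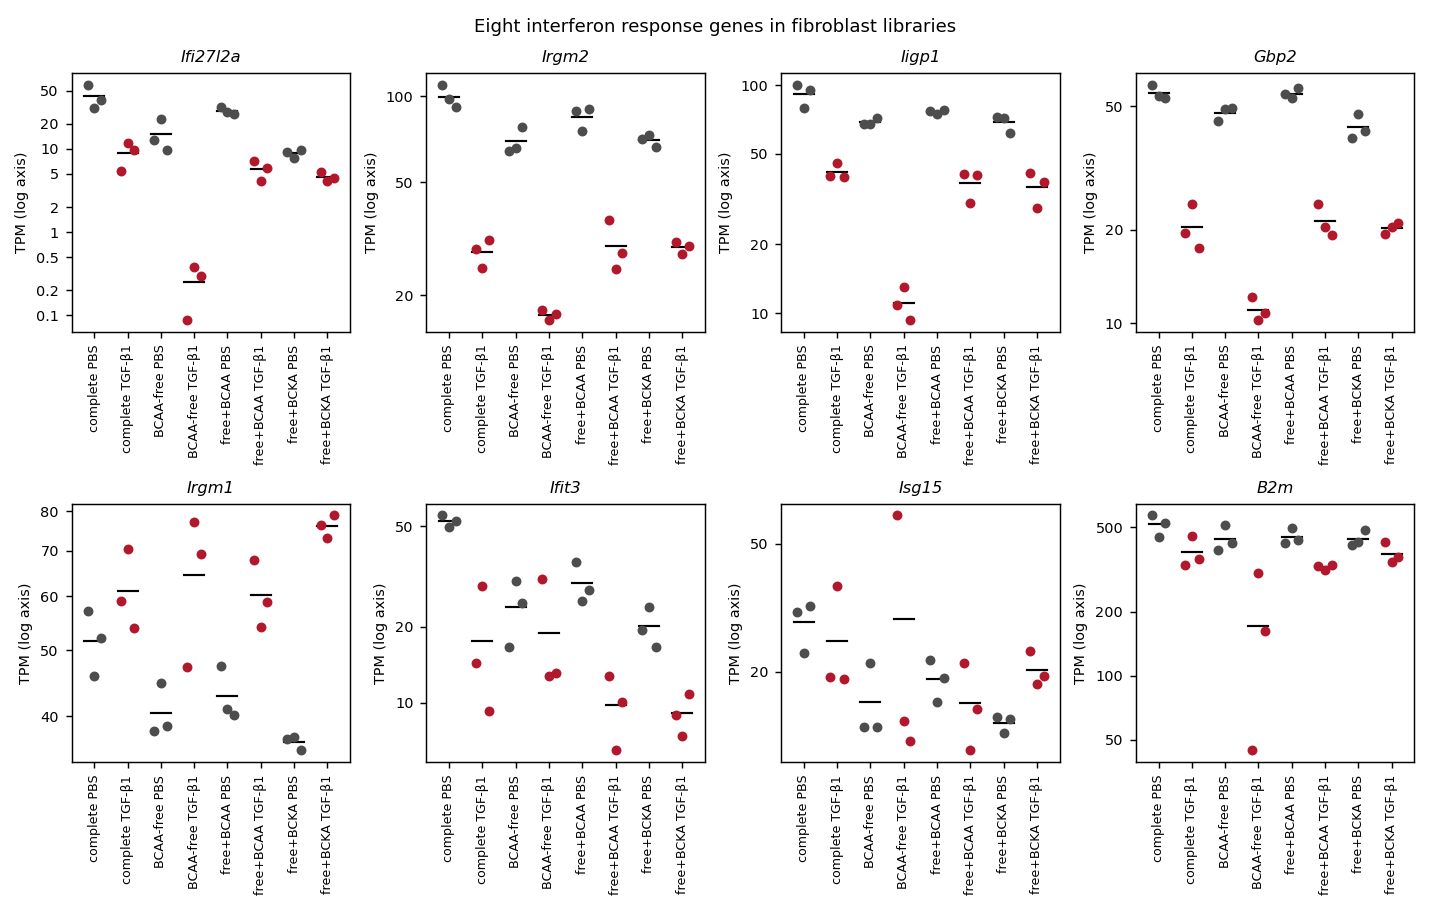
Level of 8 of the genes in every fibroblast library, in TPM on a log axis. Each point is a library, red with TGF-β1 and grey with PBS, and the bar is the group mean. Ifi27l2a and Iigp1 are lowest in BCAA-free medium with TGF-β1, while Irgm1 does not follow Irgm2.

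TGF-β1 against PBS within BCAA-free medium gave 23 of 33 lower and 1 higher, where the background was 34.9% lower and 29.2% higher. The 1 gene higher was Irgm1, at 38.1, 44.7 and 38.7 TPM with PBS and 47.3, 77.2 and 69.4 TPM with TGF-β1, without overlap (0.63 ± 0.14 log2, adjusted p = 0.000485). Whether the TGF-β1 response itself depended on BCAAs was tested as the difference between the 2 responses. It passed for 10 of the 33, 8 more negative without BCAAs and 2 more positive, against 18.4% and 29.2% of all genes. The most negative were Ifi27l2a (-1.47 ± 0.37 log2, adjusted p = 0.00251), Iigp1 (-1.43 ± 0.19 log2, adjusted p = 2.69e-06), B2m (-1.30 ± 0.52 log2, adjusted p = 0.0447) and Psmb9 (-1.16 ± 0.24 log2, adjusted p = 0.000532). Zbp1, Gbp2, Stat2 and Irf1 were also more negative, by -0.68, -0.61, -0.58 and -0.38 log2.

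The 2 that were more positive were Ifit3 (1.26 ± 0.46 log2, adjusted p = 0.0297) and Ifit2 (0.65 ± 0.18 log2, adjusted p = 0.00557): both fell with TGF-β1 in complete medium, and in BCAA-free medium Ifit3 did not pass (-0.41 log2) and Ifit2 fell by less (-0.41 log2). The BCAA-free values of both also rest on BCAA-free TGF-β1 replicate 1. Without it, in BCAA-free medium, Ifit3 passed (-0.81 log2, adjusted p = 0.0227) and Ifit2 did not (-0.24 log2, adjusted p = 0.0645). The difference between the 2 responses of Ifit2 was then larger, at 0.82 log2, adjusted p = 7.97e-05. Without BCAA-free TGF-β1 replicate 1, B2m (-0.54 log2, adjusted p = 0.0559), Zbp1 (-0.58 log2, adjusted p = 0.0528) and Ifit3 (0.86 log2, adjusted p = 0.0746) no longer passed. In that setting 13 genes passed, a count without the matching share of all genes. Centring gave a background of 23.5% higher and 23.4% lower, with 1 gene more positive and 10 more negative, Ifit3 losing its call. Leaving out any other library of these groups except BCAA-free TGF-β1 replicate 2 also ended at least one of the B2m, Ifit3, Zbp1 and Irf1 calls.

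Returning BCAAs or BCKAs to the BCAA-free medium under TGF-β1 raised most of these genes again. A BCKA is the keto acid that a BCAA becomes when transamination takes its amino group. Both returns are set against the same 3 BCAA-free libraries, so they share their controls and are given side by side. The removal under TGF-β1 above used these libraries too. A low value in them therefore enters both the fall and the rise, and the rise is not separate evidence. With BCAAs 19 of 33 were higher and 1 lower (background 25% and 33.3%), and with BCKAs 20 were higher and 2 lower (25.1% and 33.4%). The median difference was 0.42 log2 with BCAAs, 0.53 with BCKAs, and -0.07 and -0.07 for all genes. In both returns 7 of 8 GTPases, 3 of 5 regulators, both sensors and 3 of 4 antigen presentation genes were higher.

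Ifi27l2a rose to 7.18, 4.14 and 5.97 TPM with BCAAs (2.41 ± 0.26 log2, adjusted p = 6.92e-08) and to 5.24, 4.08 and 4.49 TPM with BCKAs (2.16 ± 0.26 log2, adjusted p = 3.62e-07). Every library of either return was above all 3 without BCAAs. Iigp1 rose to 40.9, 30.5 and 40.3 TPM (1.67 ± 0.13 log2, adjusted p = 6.99e-10) and 41.2, 28.9 and 37.5 TPM (1.61 ± 0.13 log2, adjusted p = 1.24e-09), again without overlap. Gbp2 rose by 0.88 and 0.82 log2, Gbp7 by 0.89 with BCAAs and Gbp3 by 0.96 with BCKAs. B2m rose to 329, 316 and 331 TPM (1.31 ± 0.37 log2, adjusted p = 0.00436) and 424, 341 and 361 TPM (1.51 ± 0.37 log2, adjusted p = 0.00137). Without BCAA-free replicate 1, the lowest B2m library, the B2m differences were 0.54 log2, adjusted p = 0.00946 with BCAAs and 0.75 log2, adjusted p = 0.000764 with BCKAs. Psmb9 rose by 1.17 and 0.82 log2, and Tap1 by 0.61 and 0.40.

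Among regulators and sensors, Stat2 rose by 0.78 and 0.80 log2, to 104, 76.9 and 95.3 TPM with BCAAs and 90.0, 85.7 and 102 TPM with BCKAs. All 6 libraries lay above the BCAA-free group. Irf7 rose by 0.64 and 0.86 log2, Irf1 by 0.41 and 0.43, Zbp1 by 0.73 and 0.95 and Ifih1 by 0.32 and 0.39. Of the effectors Ifit1 rose by 1.03 and 1.05 log2 and Oas2 by 0.80 and 0.90. Ifit3 went the other way in both, from 31.0, 12.7 and 13.1 TPM to 12.8, 6.49 and 10.1 TPM with BCAAs (-0.81 ± 0.33 log2, adjusted p = 0.0388) and 8.94, 7.42 and 10.9 TPM with BCKAs (-0.88 ± 0.33 log2, adjusted p = 0.0263), a call lost in both without BCAA-free replicate 1 and with centring. Ifit2 also fell with BCKAs (15.6 against 21.1 TPM, -0.40 ± 0.13 log2, adjusted p = 0.0115). Without BCAA-free replicate 1, 21 were higher and 2 lower with BCAAs, and 23 higher and 1 lower with BCKAs, without the matching shares of all genes. The lower genes were then Ifit2 (-0.43 log2, adjusted p = 0.00203) and Irgm1 (-0.28 log2, adjusted p = 0.0371) with BCAAs, and Ifit2 (-0.57 log2, adjusted p = 0.000143) with BCKAs. The differences of Ifit1 were then 1.65 and 1.66 log2, those of Ifih1 0.19 (no longer passing) and 0.26, and those of Ifit3 -0.41 and -0.48. Gbp3 and Ifi47 were 1.26 and 0.63 log2 with BCAAs, and Tap1 0.62 with BCKAs. Of 10 receptor and JAK-STAT genes 7 rose with BCAAs and 6 with BCKAs, and of 39 further effectors 19 and 20. Some further effectors fell, among them Rnf213 (-0.83 log2, adjusted p = 0.000444) and Ifi27 (-0.75 log2, adjusted p = 0.00402) with BCKAs.

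The other genes that rose with BCAAs were Gbp3, Irgm2, Igtp, Xaf1 and Ifi47, with differences between 0.41 and 0.80 log2. With BCKAs they were Ifi44, Gbp7, Irgm2, Xaf1, Igtp and Ifi47, with differences between 0.53 and 0.85 log2. Fitting only the compared groups ended the calls of B2m, Ifih1, Ifit1, Ifit3 and Tap1 in both returns, of Irf7, Oas2 and Zbp1 with BCAAs, and of Gbp3 and Ifit2 with BCKAs. It also ended that of Ifi47 in both and of Gbp3 with BCAAs. In the BCAA return, leaving out BCAA-free replicate 1 ended the calls of Ifih1 and Ifit3, replicate 2 or 3 those of Gbp3, Ifi47, Ifit1 and Irf7, BCAA replicate 1 those of Gbp3, Ifi47, Ifih1, Ifit1, Irf7, Oas2 and Xaf1, replicate 2 those of Ifi47 and Ifit3, and replicate 3 those of Ifi47, Ifih1, Ifit1 and Ifit3. In the BCKA return, BCAA-free replicate 2 or 3 ended those of Ifit1, Ifit2 and Tap1, BCKA replicate 1 those of Ifit1 and Ifit3, replicate 2 those of Ifit2, Ifit3 and Tap1, and replicate 3 those of Ifit1 and Tap1.

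BCKAs and BCAAs were then compared directly under TGF-β1. None of the 33 passed in limma, 1 had an unadjusted p under 0.05, and the background was 0.222% higher and 0.0459% lower. The largest difference was 0.49 log2 in size. The unadjusted 95% intervals of single genes reached 0.18 log2 either side for Irf1 to 0.79 for Isg15. Their spread is pooled over all fibroblast libraries, among them BCAA-free TGF-β1 replicate 1, where Isg15 stood apart. Differences within those widths could not be told from 0, and an adjusted p under 0.05 asks for more still. Set against complete medium with TGF-β1, 0 of 33 passed with BCAAs returned (2 at an unadjusted p under 0.05; background 0% higher and 0.0153% lower) and 0 with BCKAs (3; 0.405% and 0.206%). In resting cells neither return passed for any gene against BCAA-free PBS: BCAAs gave 3 at an unadjusted p under 0.05 (background 0.122% higher and 0.138% lower, or 0.107% higher and 0.206% lower with centring) and BCKAs 1 (0.397% and 0.268%, or 0.283% higher and 0.29% lower). The largest differences in size were 0.95 log2 with BCAAs and 0.63 log2 with BCKAs, both for Ifi27l2a. Its values were 31.5, 28.1 and 26.3 TPM with BCAAs and 9.19, 7.84 and 9.66 TPM with BCKAs. Without either they were 12.9, 22.6 and 9.81 TPM. Unadjusted 95% intervals of single genes again reached 0.18 to 0.79 log2 either side.

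Within the returned media TGF-β1 against PBS lowered 23 and raised 1 with BCAAs (background 33.2% and 11.5%), and lowered 17 and raised 2 with BCKAs (34.3% and 11.5%). With every library centred on its median these became 17 lower and 1 higher (background 19.5% higher and 20.8% lower), and 11 lower and 2 higher (19.7% higher and 20.1% lower). Ifi27l2a was 5.76 against 28.6 TPM with BCAAs (-2.15 ± 0.26 log2, adjusted p = 6.30e-07) and 4.60 against 8.90 TPM with BCKAs (-0.82 ± 0.26 log2, adjusted p = 0.0137), the latter call being lost with centring and without BCKA TGF-β1 replicate 2. Irgm2 was -1.49 ± 0.12 log2, adjusted p = 1.30e-09 and -1.22 ± 0.12 log2, adjusted p = 3.38e-08 in the same order. Irgm1 was higher in both (0.48 ± 0.14 log2, adjusted p = 0.00812 with BCAAs, 1.03 ± 0.14 log2, adjusted p = 3.10e-06 with BCKAs), and Ifi44 with BCKAs (1.17 ± 0.24 log2, adjusted p = 0.000378).

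**Figure D3:**
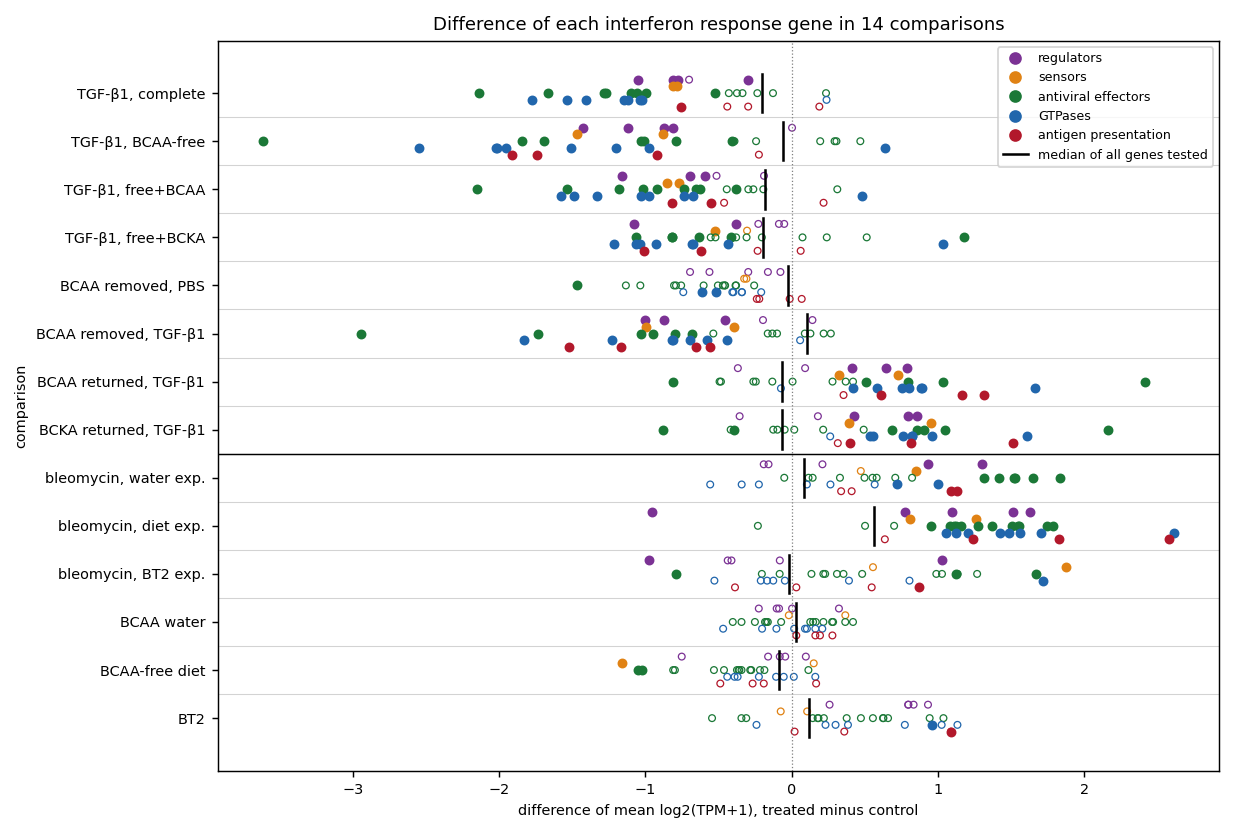
Difference of each gene, in log2(TPM + 1), in 14 comparisons of the cultures and lungs. Filled points passed an adjusted p of 0.05, open points did not, and the black bar is the median of all genes tested in that comparison. Most genes lie below 0 under TGF-β1 and BCAA removal, and above 0 in the returns and in bleomycin lungs of the diet experiment.

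In whole lung the question was how the same genes stood after bleomycin. In the drinking-water experiment 13 of 34 were higher in bleomycin than in PBS lungs on day 14 and 0 lower, against 14.8% and 7.08% of 17209 genes tested. The median was 0.56 log2 against 0.09 for all genes. By role 6 of 15 effectors, 2 of 5 regulators, 1 of 2 sensors, 2 of 8 GTPases and 2 of 4 antigen presentation genes were higher. Isg15 stood at 35.3, 38.4 and 30.1 TPM in PBS and 95.9, 111 and 183 TPM in bleomycin lungs. All bleomycin lungs were above all PBS lungs (1.83 ± 0.29 log2, adjusted p = 0.00152). Ifit3 was 55.2, 78.8 and 61.0 TPM with PBS and 188, 150.3 and 299 TPM with bleomycin, apart (1.65 ± 0.26 log2, adjusted p = 0.00145). Ifit1 (1.52 ± 0.35 log2, adjusted p = 0.011) and Rsad2 (viperin, 1.52 ± 0.26 log2, adjusted p = 0.00227) rose with them.

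Irf7 stood at 13.6, 15.0 and 11.1 TPM with PBS and 27.2, 36.2 and 38.8 TPM with bleomycin, without overlap (1.30 ± 0.26 log2, adjusted p = 0.00516). Zbp1 (11.7 against 6.06 TPM, 0.85 ± 0.19 log2, adjusted p = 0.00906) and Usp18 (31.6 against 15.7 TPM, 0.93 ± 0.27 log2, adjusted p = 0.0314) were higher. B2m rose from 2275, 2126 and 2305 to 4652, 5357 and 4278 TPM (1.09 ± 0.16 log2, adjusted p = 0.00106) and Psmb8 by 1.13 ± 0.18 log2, adjusted p = 0.00148. Of the GTPases, Iigp1 (1.00 ± 0.30 log2, adjusted p = 0.037) and Irgm1 (0.72 ± 0.21 log2, adjusted p = 0.0345) were higher, whereas Gbp2 was 103, 61.1 and 307 TPM with PBS and 83.4, 88.2 and 81.6 TPM with bleomycin, overlapping, with PBS replicate 3 far above its partners (-0.56 ± 0.47 log2, adjusted p = 0.423, and 0.0884 log2 without it). The mean log2(TPM + 1) of the GTPases was 5.68 in PBS replicate 3, against 4.98 and 4.66 in PBS replicates 1 and 2. In the bleomycin lungs it was 5.16 to 5.48. Without PBS replicate 3, Ifi47 passed as higher (0.89 log2, adjusted p = 0.0322) and Iigp1 was 1.34 log2. Leaving out PBS replicate 3 ended the call of Usp18, replicate 1 or 2 of that group or bleomycin replicate 3 those of Usp18, Iigp1 and Irgm1, bleomycin replicate 1 those of Iigp1 and Irgm1, and bleomycin replicate 2 that of Usp18. Centring ended the calls of Irgm1 and Usp18 and gave a background of 14.3% higher and 12.3% lower, and removing the filter ended those of Iigp1, Irgm1 and Usp18.

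The other genes higher with bleomycin were Ifit2 and Oas1a, with differences between 1.31 and 1.42 log2. The 34 genes summed to 3174 to 3691 TPM in PBS and 6229 to 7122 TPM in bleomycin lungs, of which B2m made up 62.5 to 67.0% and 67.9 to 75.2%. All 8 class II genes were higher, and 12 of 43 further effectors were higher and 2 lower. The macrophage marker sum was 371 to 493 TPM with PBS and 1607 to 2432 TPM with bleomycin, moved with these genes, and its part was not tested.

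In the diet experiment 29 of 34 were higher and 1 lower in bleomycin than in PBS lungs on day 21, where 48.7% of 18593 genes were higher and 12.3% lower. The median was 1.25 log2 against 0.56 for all genes, so the shift of all genes is large here. With every library centred on its median, 21 were higher and 2 lower (the calls of Ifih1, Rsad2, Irf1, Ifit1, Isg15, Bst2, Ifi44 and Mx2 were lost; centring takes the same amount from every difference, so that Irf7 was 1.06, Stat2 0.95, Zbp1 0.69, Irf9 0.53 and Usp18 -1.52 log2) and the background higher and lower was 24.3% and 25.3%. Iigp1 stood at 3.04, 3.84, 5.43 and 4.00 TPM with PBS and 30.7, 34.6, 26.9 and 26.8 TPM with bleomycin. The lowest bleomycin lung was far above the highest PBS lung (2.61 ± 0.22 log2, adjusted p = 6.41e-07). B2m was 481, 526, 719 and 566 TPM and 2981, 3332, 3202 and 4145 TPM in the same order (2.58 ± 0.21 log2, adjusted p = 5.77e-07), Tap1 50.9 against 13.6 TPM (1.83 ± 0.30 log2, adjusted p = 0.000221) and Psmb8 1.24 log2.

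Irf7 rose by 1.62 ± 0.25 log2, adjusted p = 0.000134, Stat2 by 1.51 and Irf9 by 1.10 log2. Ifit3 rose by 1.79 ± 0.14 log2, adjusted p = 3.84e-07, Oas2 by 1.74, Rsad2 by 1.55 and Ifit2 by 1.55 log2. Gbp7 rose by 1.70, Irgm2 by 1.56, Zbp1 by 1.26 and Ifih1 by 0.81 log2. Usp18 was the 1 gene lower, at 49.4, 47.9, 45.2 and 32.6 TPM with PBS and 22.2, 20.5, 19.5 and 25.6 TPM with bleomycin, with no overlap (-0.95 ± 0.20 log2, adjusted p = 0.00106). The other genes higher were Mx1, Gbp2, Igtp, Ifit1, Xaf1, Ifi47, Oasl2, Gbp3, Bst2, Ifi44, Isg15, Irgm1, Mx2 and Irf1, with differences between 0.77 and 1.503 log2, Irf1 losing its call without PBS or bleomycin replicate 2 or 4. The genes that did not pass were Oas1a, Psmb9, Ifi27l2a and Ifi35, with differences between -0.23 and 0.70 log2.

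Without centring, 9 of 10 receptor and JAK-STAT genes were higher, 32 of 43 further effectors and 8 of 8 class II genes. The share of all genes called higher was 48.7%, and counts of these lists with centring are not given. The PBS lungs held macrophage markers of 262 to 479 TPM against 3770.2 to 4531 TPM, endothelial markers of 143 to 233 TPM against 1611 to 2225 TPM and fibroblast markers of 659.95 to 807 TPM against 2714 to 3266 TPM, besides the mitochondrial and Scgb1a1 shares given above. Their part in these results was not tested.

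In the BT2 experiment 6 of 34 were higher and 2 lower in bleomycin with DMSO than in PBS lungs on day 14, against 17.3% and 13.3% of 18151 genes. The share of the list called higher was thus close to that of all genes. The median was 0.27 log2 against -0.02. Zbp1 was 4.73, 4.42 and 2.55 TPM with PBS and 9.93, 16.0 and 28.1 TPM with bleomycin, apart in every lung (1.87 ± 0.39 log2, adjusted p = 0.00649). Iigp1 (1.72 ± 0.35 log2, adjusted p = 0.00611), Ifi27l2a (1.67 ± 0.48 log2, adjusted p = 0.027), Ifit2 (1.12 ± 0.34 log2, adjusted p = 0.031), Irf7 (1.03 ± 0.33 log2, adjusted p = 0.0392) and B2m (0.87 ± 0.23 log2, adjusted p = 0.0194) were higher.

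Irf1 was lower, at 82.5, 105 and 87.2 TPM with PBS and 25.9, 66.3 and 55.9 TPM with bleomycin, without overlap (-0.97 ± 0.29 log2, adjusted p = 0.0313), as was Ifi35 (-0.79 ± 0.23 log2, adjusted p = 0.0258). Bleomycin replicate 1 stood apart, with Irgm2 at 7.97, 42.7 and 32.8 TPM and Rpl31 at 1449 TPM. Without it the differences of Irf1 and Ifi35 shrank to -0.57 log2, adjusted p = 0.0219 and -0.50 log2, adjusted p = 0.0222. Without it 13 genes were higher and 2 lower, a count without the matching share of all genes, and the Ifi27l2a call was lost. Leaving out another lung ended between 2 and 6 of the calls. All 8 calls but those of Zbp1 and Iigp1 were lost by leaving out some library. Macrophage markers were 393 to 519 TPM with PBS and 5497 to 8556 TPM with bleomycin, and their part was not tested.

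**Figure D4:**
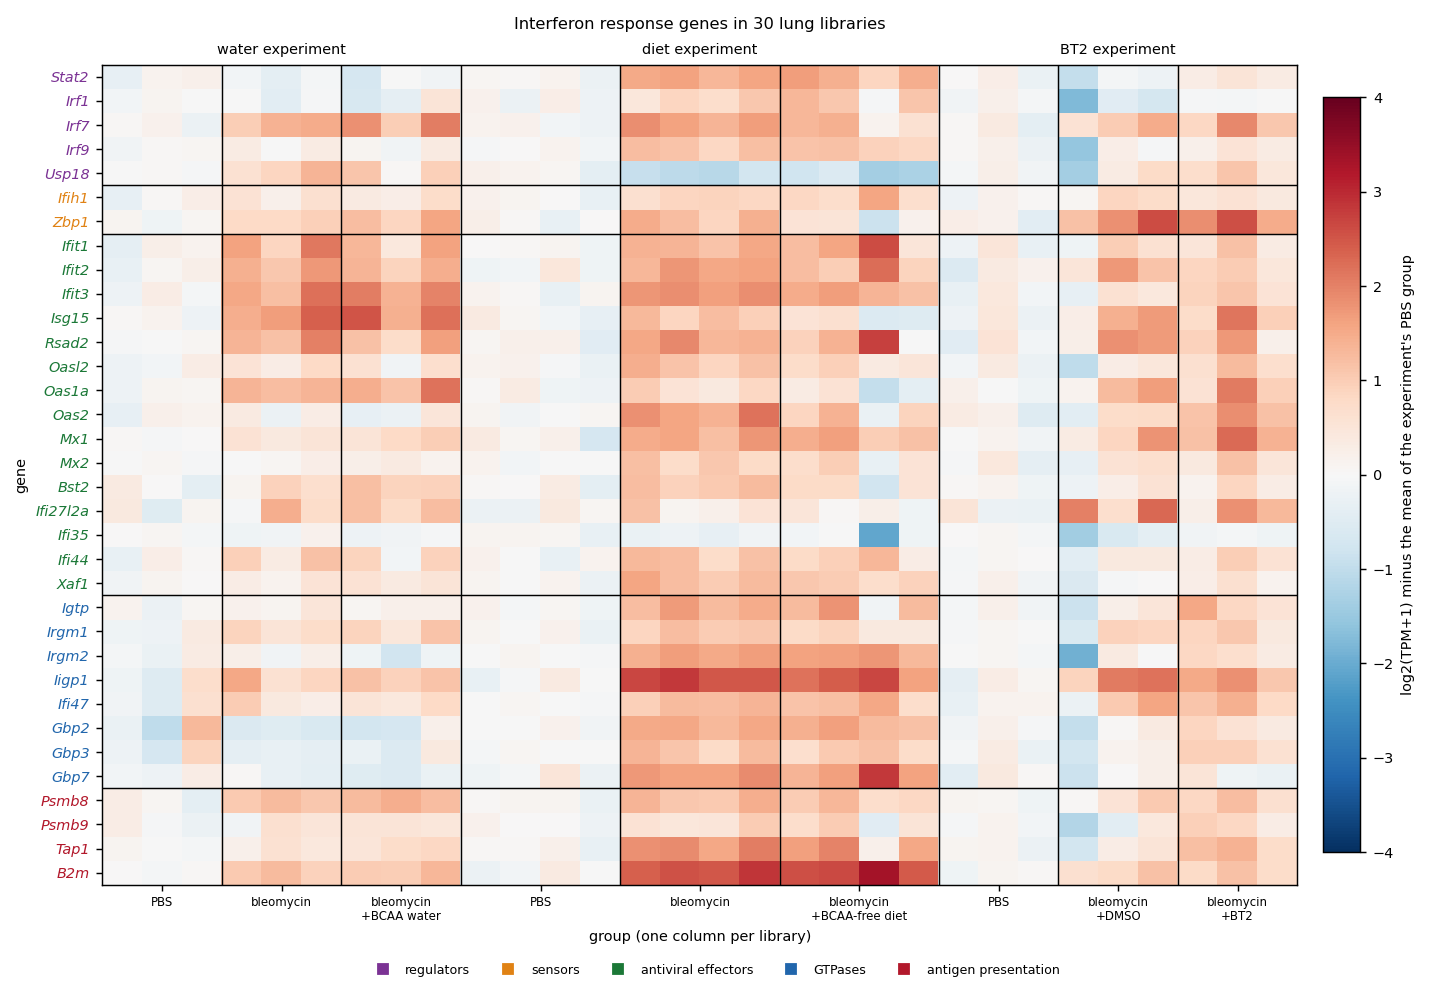
Level of each of the 34 genes in the 30 lungs, as log2(TPM + 1) minus the mean of the PBS lungs of the same experiment. Rows are genes with labels coloured by role, columns are lungs by group, and colours stop at 4 log2 units either way. The diet experiment's bleomycin lungs are raised in most rows, and Usp18 is the row lowered most in them.

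Set side by side, bleomycin gave B2m 1.09, 2.58 and 0.87 log2 in the water, diet and BT2 experiments, Zbp1 0.85, 1.26 and 1.87, and Irf7 1.30, 1.62 and 1.03, each called in all 3. Iigp1 was called in all 3 as well (1.00, 2.61 and 1.72 log2). Usp18 was 0.93, -0.95 and -0.08 log2 and Irf1 -0.16, 0.77 and -0.97, both of them called in opposite directions in 2 of the experiments. These opposite calls do not hold under every setting. For Irf1 the diet value was 0.21 log2, adjusted p = 0.436 with centring, and the BT2 value -0.57 log2 without bleomycin replicate 1. For Usp18 the call in the water experiment was lost under the settings named above, and the BT2 value was 0.55 log2, adjusted p = 0.106 without bleomycin replicate 1, which held 7.44 TPM against 26.3 and 35.8 TPM in its partners. Interferon genes were low in all lungs, at most 0.533, 0.75 and 1.01 TPM in the 3 tables, and none was tested.

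BCAA drinking water before bleomycin left no gene past the test. Against bleomycin alone 0 of 34 passed in limma and 1 had an unadjusted p under 0.05, with a background of 0.872% higher and 0.331% lower. The largest difference was 0.47 log2, and the unadjusted 95% intervals spanned 0.29 to 1.03 log2 either side. Their spread is pooled over all lungs of this experiment, PBS lungs included. A difference within those widths would not have been told from 0, and an adjusted p under 0.05 asks for more still. Centring gave a background of 1.24% higher and 0.779% lower and still 0 genes. Macrophage markers were 1607 to 2432 TPM with bleomycin and 2673 to 3635 TPM with BCAAs as well, and their part was not tested.

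On the BCAA-free diet after bleomycin 3 of 34 genes were called lower and 0 higher, with a background of 6.12% lower and 4.02% higher. The share of the list called lower was thus not far from that of all genes. The median was -0.28 log2 against -0.09, and 10 genes had an unadjusted p under 0.05, a count without the matching share of all genes. Zbp1 was 18.2, 15.2, 11.5 and 17.5 TPM on normal diet and 9.07, 8.87, 2.75 and 6.69 TPM on BCAA-free diet, with no overlap (-1.16 ± 0.28 log2, adjusted p = 0.0223). Isg15 (103, 76.4, 99.6 and 81.7 against 61.6, 65.7, 28.2 and 29.0 TPM) also did not overlap (-1.05 ± 0.27 log2, adjusted p = 0.03), and Oas2 was 11.8 against 23.5 TPM (-1.02 ± 0.29 log2, adjusted p = 0.0435). Without BCAA-free diet replicate 3 these 3 genes still passed. Centring gave a background of 7.42% higher and 5.89% lower and the same count, while removing the filter or fitting only the compared groups gave 0, and a pseudocount of 0.1 ended the call of Oas2. All 3 calls were lost without normal-diet replicate 1 or 4, those of Isg15 and Oas2 without normal-diet replicate 3 or BCAA-free replicate 4, and that of Oas2 without normal-diet replicate 2 or BCAA-free replicate 1. Macrophage markers were 3770.2 to 4531 TPM on normal diet and 1221 to 3091 TPM on BCAA-free diet, and their part was not tested.

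With BT2 after bleomycin 2 of 34 genes were called higher than with DMSO and 0 lower, with a background of 6.34% higher and 5.41% lower. The share of the list called higher was thus close to that of all genes. The median was 0.43 log2 against 0.12, and 13 had an unadjusted p under 0.05, a count without the matching share of all genes. Gbp3 was 13.4, 25.3 and 27.3 TPM with DMSO and 45.8, 45.2 and 35.6 TPM with BT2, and no lung of one group lay inside the other (0.96 ± 0.27 log2, adjusted p = 0.0467). Tap1 stood at 19.1, 39.9 and 47.1 TPM with DMSO and 75.9, 87.2 and 55.1 TPM with BT2, also apart (1.09 ± 0.31 log2, adjusted p = 0.0497). Leaving out DMSO replicate 1 gave 0.65 log2, adjusted p = 0.0842 for Gbp3 and 0.71 log2, adjusted p = 0.0849 for Tap1, and leaving out any of the 3 BT2 lungs ended both calls too. In the class I list 7 of 19 genes were higher with BT2, among them H2-Q7 (12.6 against 2.66 TPM, 1.98 log2, adjusted p = 0.00951). Macrophage markers were 5497 to 8556 TPM with DMSO and 1996 to 3977 TPM with BT2, B cell markers 4.35 to 57.2 TPM and 73.6 to 295 TPM, and alveolar type 2 markers 2331 to 15538 TPM and 43192 to 75875 TPM. The part of these markers in the result was not tested.

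**Figure D5:**
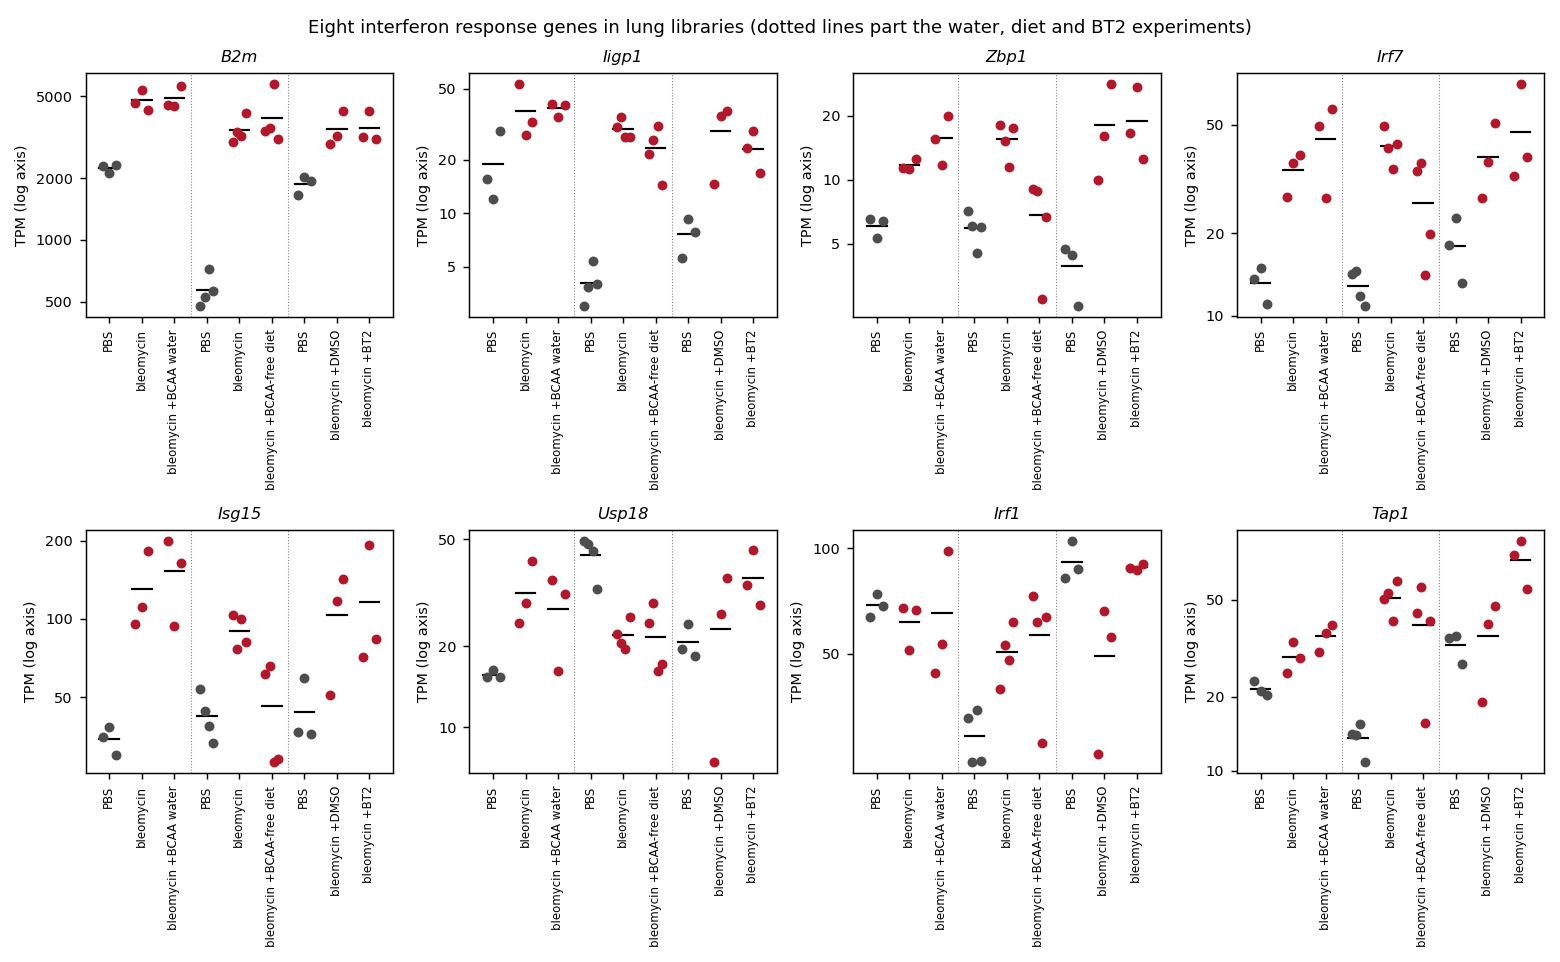
Level of 8 of the genes in every lung, in TPM on a log axis. Each point is a lung, red with bleomycin and grey with PBS, and the bar is the group mean. B2m and Zbp1 are higher with bleomycin in all 3 experiments, while Usp18 differs in direction between the water and diet experiments.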

How the data were processed

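RNA-seq libraries of 24 fibroblast cultures and 30 lungs were analysed from 4 deposited tables in TPM, made by the authors, each library summing to the same total. The submitters' processing notes name FastQC, Trim Galore, HISAT2, featureCounts, Subread, DESeq2 and mm39, with no versions or roles. The depth behind a TPM is unknown. Rows of 1 symbol were summed, and lung rows without a symbol (at most 0.367% of TPM) were left out. Samples were grouped by title. Each table was fitted with limma 3.58.1 in R 4.3.3 on log2(TPM + 1), with group means over all its libraries and a variance trend, for genes reaching 1 TPM in 3 or more libraries. The 20 comparisons were two-sided, with Benjamini-Hochberg adjustment over all genes tested in the table. The procedure was tested on simulated data. The members and lists were chosen with earlier results of these data known. Within each role, up to 3 passing genes per direction with the largest difference were named, other values being context chosen after they were seen. Alternatives were leaving out each library, a replicate block, fitting only the compared groups, centring each library on its median, a pseudocount of 0.1, and filters at 5 TPM or at none. Promoters came from RefSeq (GRCm38.p6), and the annotation they were checked against was GENCODE's. The strand was the same for all 31 windows of the members. Bases after the start were found in a transcript of the gene for 27 of the 31. They were not found for the Irgm2 window, whose stretch is printed, or for the Stat2 window, among others. The extraction text speaks of heart tissue, although these samples are labelled lung. Some results of the pathway lists are not reported here.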

Additional observations from a re-analysis of the deposited data

Results flagged for a closer look

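In 102 sets of 4 lungs (34 genes in 3 groups of the diet experiment), 8 held a library far from the other 3, where chance alone gives about 1 in 20. Bleomycin with BCAA-free diet replicate 3 stood apart for 4 genes, with Ifih1 at 20.1 TPM (others 10.3 to 11.6), Ifi35 at 23.5 TPM (90.4 to 101.3), Gbp7 at 30.8 TPM (10.48 to 12.97) and B2m at 5705 TPM (3085 to 3513). It is the lung with the fewest genes above 0 and 16.5% mitochondrial transcripts, whose part was not tested. Bleomycin on normal diet replicate 3 was low for Gbp2 at 46.3 TPM. PBS on normal diet replicate 3 was high for Ifit2 at 11.2 TPM, and replicate 4 was low for Ifi35 at 83.0 TPM and Psmb8 at 17.97 TPM.

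The response to TGF-β1 differed between BCAA-free and complete medium, by limma's test of the difference, for 10 genes. It was more negative without BCAAs by -1.47 log2 for Ifi27l2a, -1.43 for Iigp1, -1.30 for B2m, -1.16 for Psmb9, -0.68 for Zbp1, -0.61 for Gbp2, -0.58 for Stat2 and -0.38 for Irf1. It was more positive by 1.26 log2 for Ifit3 and 0.65 for Ifit2. Without BCAA-free TGF-β1 replicate 1, the values for B2m (-0.54 log2, adjusted p = 0.0559), Zbp1 (-0.58 log2, adjusted p = 0.0528) and Ifit3 (0.86 log2, adjusted p = 0.0746) no longer passed.

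After bleomycin, Irf1 lay above every PBS lung in the diet experiment (0.77 log2) and below every PBS lung in the BT2 experiment (-0.97 log2), while the groups overlapped in the water experiment. Usp18 lay above every PBS lung in the water experiment (0.93 log2) and below in the diet experiment (-0.95 log2), and overlapped in the BT2 experiment. With every library centred on its median the diet value of Irf1 was 0.21 log2, adjusted p = 0.436 and the water value of Usp18 0.84 log2, adjusted p = 0.0734. Without bleomycin with DMSO replicate 1 the BT2 value of Irf1 was -0.57 log2. Dose and day both differ between the diet and BT2 experiments, and the day, at the same dose, between the water and diet experiments. Neither of these opposite directions was tested.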

How the results depend on the processing

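Counts are genes of the list that passed, without the matching share of all genes. A pseudocount of 0.1 gave 0 for BCAA removal with PBS and 0 for BT2. Without a filter the counts were 0 for BCAA-free diet, 2 for bleomycin in the BT2 experiment and 0 for BT2. Median centring gave 5 for BT2. Fitting only the compared groups gave 7 for BCAA removal with PBS, 13 for BCAA removal under TGF-β1, 6 for the difference between the TGF-β1 responses, 10 for BCAA return, 14 for BCKA return, 0 for BCAA-free diet, 5 for bleomycin in the BT2 experiment and 0 for BT2; fewer libraries then estimate the spread. No gene that passed changed direction in its own comparison. Among named genes that did not pass, centring turned Bst2 under TGF-β1 in complete medium to 0.0642 log2, Irgm1 in BCAA removal under TGF-β1 to -0.0497 and Ifi27l2a after bleomycin in the diet experiment to -0.0633.

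Leaving out 1 library at a time, the counts ranged from 20 to 22 for TGF-β1 in complete medium, 0 to 2 for BCAA removal with PBS, 19 to 27 under TGF-β1, 22 to 28 for TGF-β1 in BCAA-free medium and 7 to 13 for the difference between responses. They were 14 to 23 for BCAA return, 19 to 24 for BCKA return, 18 to 21 and 15 to 18 for TGF-β1 with BCAAs and with BCKAs returned. In lung they were 10 to 13, 29 to 31 and 2 to 15 for bleomycin in the water, diet and BT2 experiments, 0 to 6 for BCAA-free diet and 0 to 7 for BT2. The other 6 comparisons stayed at 0. Leaving out 1 library could turn the sign of named genes that had not passed: the log2 difference ranged from -0.34 to 0.0591 for Bst2 with TGF-β1 in complete medium, -0.0846 to 0.26, -0.82 to 0.30 and -0.45 to 0.46 for Irgm1, Isg15 and Usp18 in BCAA removal under TGF-β1, -1.07 to 0.0884 for Gbp2 in the water experiment and -0.51 to 0.55 for Usp18 after bleomycin in the BT2 experiment.

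Replicate numbers were not treated as pairs. Same-numbered deviations correlated above 0.1 in 29 of 84 pairs in cultures, 1 of 9, 1 of 12 and 2 of 9 in the water, diet and BT2 lungs. In cultures the correlations ran from -0.49 to 0.54 with a median of 0.011, which does not settle whether same-numbered cultures share an origin. With a replicate block the count for BT2 was 1, and the others stayed within 1.5 times.

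TPM keeps no read depth, so no counting error can be given for low genes such as Mx1 and Rsad2 in fibroblasts.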
